A study of Homo sapiens with 24 samples.

Results

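The 10 genes described here encode the parts of the pre-replication complex that are loaded on DNA in G1 and the factors that load or block them: the helicase subunits MCM2, MCM3, MCM4, MCM5, MCM6 and MCM7, the loading factors ORC1, CDC6 and CDT1, and GMNN, which encodes geminin. They were chosen by gene symbol, and all 10 were found among the 26645 gene entries of the count matrix and were among the 14741 genes tested. Poly(A) RNA-seq was performed on MB468 (MDA-MB-468, a triple-negative breast cancer line) and MB468res-R8, a single clone derived from it that keeps growing when methionine (Met) is replaced by its precursor homocysteine (Hcy). Cells of both lines were harvested in medium with 100 µM Met (Met+, 0 h), or 0.5, 2 or 12 h after transfer to medium with 370 µM Hcy and no Met (Met-Hcy+), with 3 libraries in each of the 8 groups. All groups shared dialyzed serum and added vitamin B12, glutamine and cysteine. No Met+ library was taken at 0.5, 2 or 12 h. At each of these times, the lack of Met cannot be told apart from the change of medium and the time since it.

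In a cycling cell, the origin recognition complex (of which ORC1 is the largest subunit) and CDC6 bind an origin of replication, and CDT1 brings the ring of MCM subunits, which is then closed around DNA. The ring needs each of its 6 different subunits, and it is loaded in excess over what is used. Once S phase begins, CDT1 is degraded and geminin binds what is left of it, so that an origin is not loaded again before mitosis. The genes of the ring, CDC6, CDT1 and ORC1 are classic targets of E2F transcription factors and peak at mRNA level around the G1/S transition.

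Library totals were 11713037 to 36402932 counts (median 20452797), and 0.201 to 0.303% of the counts fell on the 92 spike-in RNAs. The 10 genes were well covered in all 24 libraries, from 474 counts (ORC1) to 16415 counts (MCM7). The epithelial markers were at 255 CPM (the TMM-scaled counts relative to library size) or above in every library, with KRT8 at 1005 to 2479 CPM. Of the basal markers, EGFR was at 2102 to 4278, KRT5 at 1540 to 2783, KRT17 at 283 to 2672 and KRT14 at 69.8 to 258 CPM. Of the hormone receptor list, PGR was at 0 to 0.0983, ESR1 at 4.15 to 22.6 and ERBB2 at 38.3 to 97.3 CPM. Of the fibroblast list, COL1A2 and PDGFRB were at 0 to 0.656 CPM and COL1A1 at 14.6 to 73.2 CPM. Of the leukocyte list, PTPRC and CD3E were at 0 to 0.199 CPM and CD68 at 2.85 to 10.0 CPM, and the endothelial markers PECAM1 and CDH5 were at 0 to 2.70 CPM. One MB468 library at 2 h, replicate 2, held 8251 counts of the small nuclear RNA gene RN7SK, against at most 357 in any other library. With or without that library, edgeR called 0 of the 10 genes in MB468 at 2 h.

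Levels are set against each other between genes only per kilobase of exon, in Met+ medium. MCM7 was the most abundant in MB468 (114 ± 3.59 CPM per kb of exon union, SD, n = 3), followed by MCM3 (98.8 ± 0.638), and ORC1 was the least (14.0 ± 0.961). MCM6 (35.9 ± 0.731), CDT1 (34.0 ± 0.769), GMNN (33.6 ± 0.342), MCM4 (31.8 ± 0.592) and MCM5 (29.8 ± 0.505) lay close together, with CDT1 and GMNN within 1 SD of each other. MCM2 (20.7 ± 0.965) and CDC6 (20.6 ± 0.359) did not differ beyond their spread. In MB468res-R8 the top of the order was exchanged: MCM3 stood at 83.8 ± 1.67 and MCM7 at 58.4 ± 1.01 CPM per kb. The middle of the order depends on the length used. With the longest annotated transcript in place of the exon union, MCM7 and MCM3 were almost level in MB468res-R8 (93.8 ± 1.62 and 95.2 ± 1.90 CPM per kb), GMNN rose to the third place in both lines, and ORC1 stayed last.

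At 12 h in Met-Hcy+, the mRNA of the MCM ring was lower in MB468, and MCM6 fell far more than its partners. MCM6 (chromosome 2, 135839626 to 135876443, minus strand, GRCh38) was at 150, 145 and 150 CPM in the 3 MB468 libraries at 0 h and at 68.1, 74.3 and 71.0 CPM at 12 h, a log2 fold change of -1.06 (SE 0.04, adjusted p = 7.8e-24). In MB468res-R8 the same gene was at 153, 153 and 160 CPM at 0 h and at 151, 159 and 156 CPM at 12 h, a log2 fold change of 0.00 (SE 0.04, adjusted p = 0.997). The 12 h MB468 libraries stood alone below all others, at 0.478 of the 0 h level, and the test of the difference between the lines gave a log2 value of 1.06 (SE 0.06, adjusted p = 1.8e-18). At 0.5 and 2 h MB468 was still at 137 to 149 CPM of MCM6, so the drop lay between 2 and 12 h.

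The other 5 subunits were lower at 12 h in MB468 too, by smaller amounts. MCM2 (chromosome 3, 127598410 to 127622436, plus strand) was at 99.1, 101 and 92.3 CPM at 0 h and at 64.0, 65.9 and 69.7 CPM at 12 h, a log2 fold change of -0.55 (SE 0.05, adjusted p = 1.5e-12). MCM7 (chromosome 7, 100092233 to 100101940, minus strand) was at 574, 575 and 544 CPM and then at 405, 406 and 415 CPM, a log2 fold change of -0.47 (SE 0.03). MCM5 (chromosome 22, 35400134 to 35425431, plus strand) was at 214, 221 and 215 CPM and then at 164, 165 and 173 CPM, a log2 fold change of -0.37 (SE 0.04). For none of these genes did the 0 h and 12 h libraries overlap. MCM3 (chromosome 6, 52264014 to 52284881, minus strand) and MCM4 (chromosome 8, 47960185 to 47978160, plus strand) changed least, with log2 fold changes of -0.20 (SE 0.03) and -0.11 (SE 0.04, adjusted p = 0.0067). As exon reads, the MCM2 values carry a limit: 1113 bases (23.6%) of its exon union lie opposite an annotated antisense RNA, and the kit does not mark strand.

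Of the genes that load or hold back the ring, CDT1 had the opposite sign to the others at 12 h in MB468. GMNN (chromosome 6, 24774931 to 24786099, plus strand) was at 82.6, 84.2 and 83.0 CPM at 0 h and at 69.4, 68.5 and 64.4 CPM at 12 h in MB468, a log2 fold change of -0.31 (SE 0.05, adjusted p = 7.7e-07). CDC6 (chromosome 17, 40287879 to 40304657, plus strand) was at 111, 110 and 107 CPM and then at 102, 106 and 97.1 CPM, a log2 fold change of -0.11 (SE 0.04, adjusted p = 0.023). ORC1 (chromosome 1, 52372829 to 52404423, minus strand) gave a log2 value of -0.07 (SE 0.06, adjusted p = 0.30), with overlapping libraries. CDT1 (chromosome 16, 88803789 to 88809258, plus strand) was at 93.3, 92.1 and 96.2 CPM at 0 h and at 100, 98.7 and 109 CPM at 12 h, a log2 fold change of 0.13 (SE 0.05, adjusted p = 0.022). This value turned to -0.11 (adjusted p = 0.49) when libraries were scaled by their spike-in totals. CDT1 was not called with DESeq2 size factors or with the spike-in factor as a covariate (adjusted p = 0.056 each). Nor was it called after counts were thinned to the lowest library total (adjusted p = 0.076) or by DESeq2 (adjusted p = 0.089). CDC6 lost its call after the same thinning (adjusted p = 0.082). CDT1 lost its call without 0 h replicate 1, 2 or 3 or 12 h replicate 3 (adjusted p = 0.061, 0.086, 0.060 and 0.22), and CDC6 without 0 h replicate 1 or 2 or 12 h replicate 3 (adjusted p = 0.063, 0.054 and 0.12).

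In all, 8 of the 10 genes were called lower at 12 h in MB468 and 1, CDT1, higher, where 34.7% of all tested genes were called lower and 36.1% higher. Their median log2 fold change was -0.26, against 0.01 over all tested genes. Their joint share of the library counts was 0.203 ± 0.0023% at 0 h and 0.173 ± 0.0018% at 12 h (SD, n = 3).

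**Figure D1:**
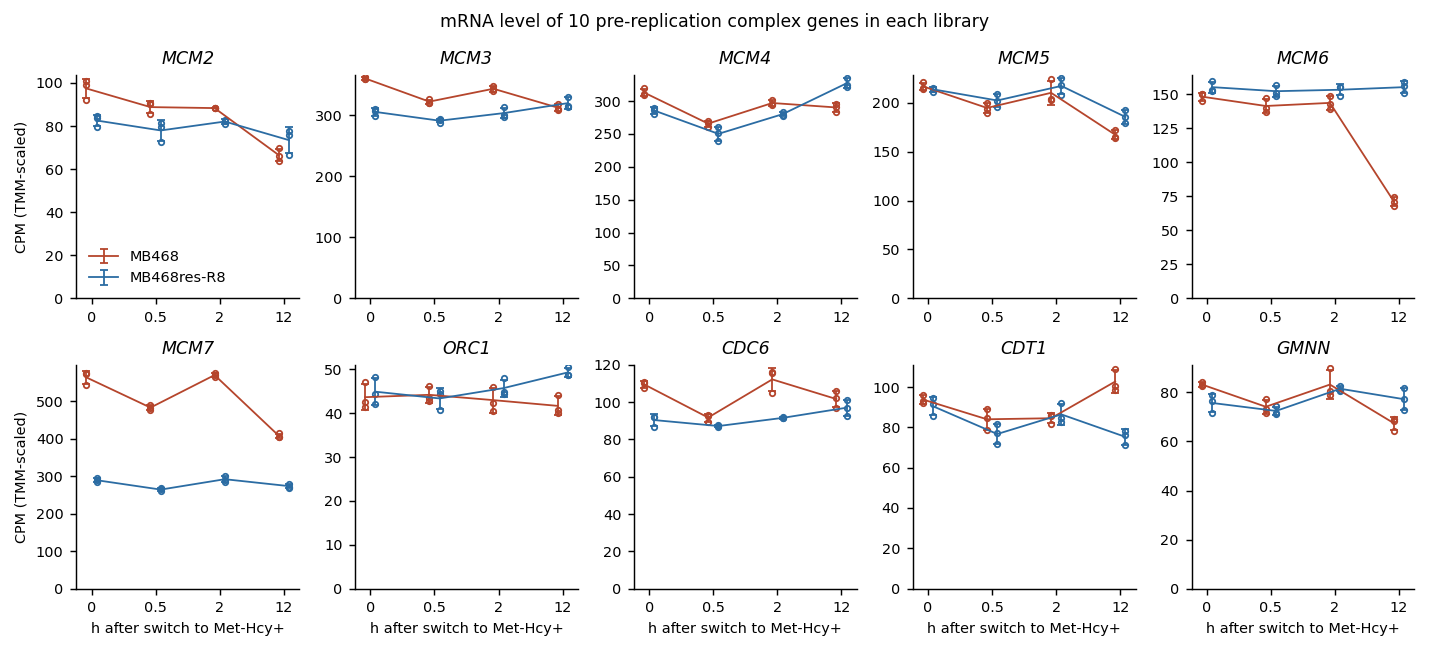
TMM-scaled CPM (y axis, from 0) of each gene against hours after the switch to Met-Hcy+ (x axis, not to scale) in MB468 (red) and MB468res-R8 (blue). Open circles are the 3 libraries of a group, lines join the means and bars are SD; MCM6 in MB468 drops to 68.1 to 74.3 CPM at 12 h, while every other MCM6 library lies at 137 CPM or above.

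MB468res-R8 showed a smaller and mixed change at 12 h: 4 genes were called lower and 1 higher, where 31.1% of all tested genes were called lower and 30.2% higher. MCM4 rose, from 290, 280 and 287 CPM at 0 h to 336, 321 and 325 CPM at 12 h (log2 fold change 0.20, SE 0.04, adjusted p = 1.1e-05). MCM5 fell from 216, 215 and 211 CPM to 193, 179 and 185 CPM (log2 fold change -0.20, SE 0.04). CDT1 fell from 91.4, 94.4 and 85.6 CPM to 78.4, 71.0 and 76.4 CPM (log2 fold change -0.26, SE 0.05), the opposite sign to its value in MB468. MCM2 (log2 fold change -0.17, SE 0.05, adjusted p = 0.0057) and MCM7 (-0.08, SE 0.04, adjusted p = 0.044) were lower as well. The MCM7 call was lost without 0 h replicate 1 or 2 or any of the 3 libraries at 12 h (adjusted p = 0.089 to 0.31), and the MCM2 call without 0 h replicate 1 or 12 h replicate 2 (adjusted p = 0.072 and 0.087). Without 12 h replicate 2, 3 genes were called in place of 5. ORC1 (0.13, SE 0.06), CDC6 (0.10, SE 0.05), MCM3 (0.07, SE 0.03) and GMNN (0.03, SE 0.05) had positive log2 values that were not called, with adjusted p from 0.053 for CDC6 to 0.66 for GMNN. ORC1, CDC6 and MCM3 each passed without MB468res-R8 0 h replicate 1 (adjusted p = 0.0089, 0.021 and 0.031) and without 12 h replicate 3 (adjusted p = 0.046, 0.0076 and 0.024), and CDC6 also without 12 h replicate 1 (adjusted p = 0.033). With DESeq2 size factors in place of TMM the split was 3 higher and 3 lower, and with spike-in scaling none of the 10 genes was called. On the spike-in scale 2766 of the 14741 tested genes were called higher and 3121 lower.

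The 12 h response of every one of the 10 genes differed between the lines by the test of the difference itself. The response was higher in MB468res-R8 for 9 genes (26.2% of all tested genes) and lower for CDT1 (30.3% of all tested genes), with a median of 0.29 for the 10 genes against -0.05 over all tested genes. After MCM6, the log2 differences were 0.39 for MCM2 (SE 0.07), 0.38 for MCM7 (SE 0.05), 0.33 for GMNN (SE 0.07), 0.30 for MCM4 (SE 0.05), 0.27 for MCM3 (SE 0.05), 0.21 for CDC6 (SE 0.06) and 0.17 for MCM5 (SE 0.06, adjusted p = 0.013). ORC1 was just past the threshold (0.20, SE 0.09, adjusted p = 0.045) and lost its call without any 1 of 6 libraries. These were MB468 0 h replicate 1 (adjusted p = 0.19), MB468 12 h replicates 1 and 3 (0.070 and 0.087), MB468res-R8 0 h replicates 2 and 3 (0.15 and 0.080) and MB468res-R8 12 h replicate 2 (0.054). After counts were thinned to the lowest library total, ORC1 was not called either (0.10, adjusted p = 0.43). CDT1 had a log2 difference of -0.40 (SE 0.08, adjusted p = 1.8e-05). With spike-in scaling 9 genes were higher and CDT1 (-0.14, adjusted p = 0.58) was not called. On that scale the median of all tested genes was at 0.20, and 4052 of 14741 were called higher and 1745 lower.

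**Figure D2:**
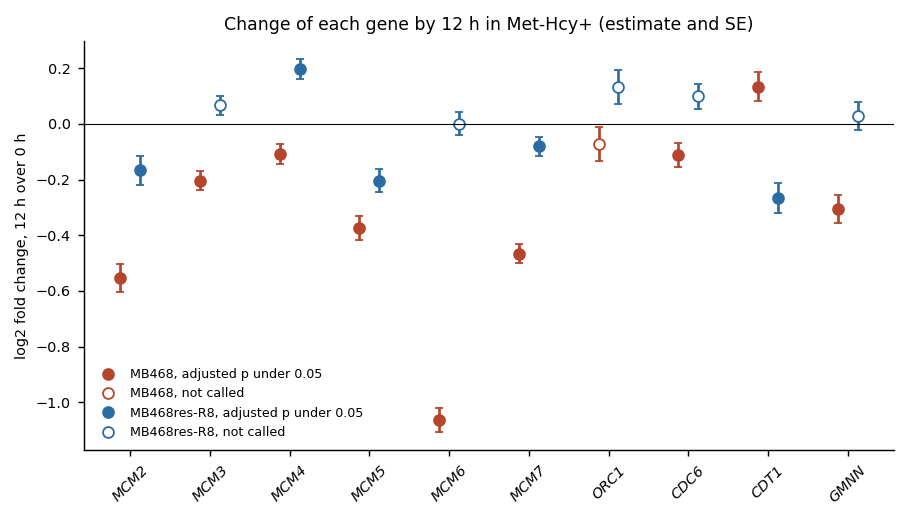
Log2 fold change from 0 h to 12 h in Met-Hcy+ (y axis) for each gene (x axis) in MB468 (red) and MB468res-R8 (blue), with the SE of edgeR's fit as bars and filled symbols where the adjusted p was under 0.05. The red point lies below the blue one for each gene except CDT1, and MCM6 in MB468 (-1.06) lies well below all others.

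Measured within each library, and so free of any scaling between libraries, the MCM6 count was 47.8 ± 1.60% of the mean count of the other 5 subunits in MB468 at 0 h and 28.6 ± 1.19% at 12 h (SD, n = 3). The 3 libraries at 12 h (27.7, 29.9 and 28.0%) lay below the 9 at the other times (46.3 to 54.6%). In MB468res-R8 the share was 66.1 ± 2.35% at 0 h and 66.0 ± 3.56% at 12 h. The share was higher in the clone at 0 h, where MCM7 and, by less, MCM2, MCM3 and MCM4 of the denominator were lower. What each of them adds to the gap was not tested. The exact two-sided permutation test of 12 h against 0 h gave p = 0.10 in MB468 and p = 1 in MB468res-R8 (n = 3 each), where 0.10 is the smallest value that 3 libraries against 3 allow.

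The CDT1 count per GMNN count moved in opposite directions. It was 1.13 ± 0.0334 in MB468 at 0 h and 1.53 ± 0.145 at 12 h, with the 12 h libraries at 1.45, 1.44 and 1.69, all above the rest of that line. In MB468res-R8 it was 1.20 ± 0.115 at 0 h and 0.978 ± 0.104 at 12 h. The 12 h libraries there (0.869 to 1.076) lay just below those at 0 h (1.084 to 1.315). They overlapped those at 0.5 h (0.962 to 1.145) and 2 h (1.023 to 1.117), where the mean was already 1.06 at each time. The exact permutation p was 0.10 in both lines (n = 3 each), again the smallest possible. These are ratios of mRNA counts without length correction and say nothing of protein, whose level is set for both factors by regulated degradation.

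**Figure D3:**
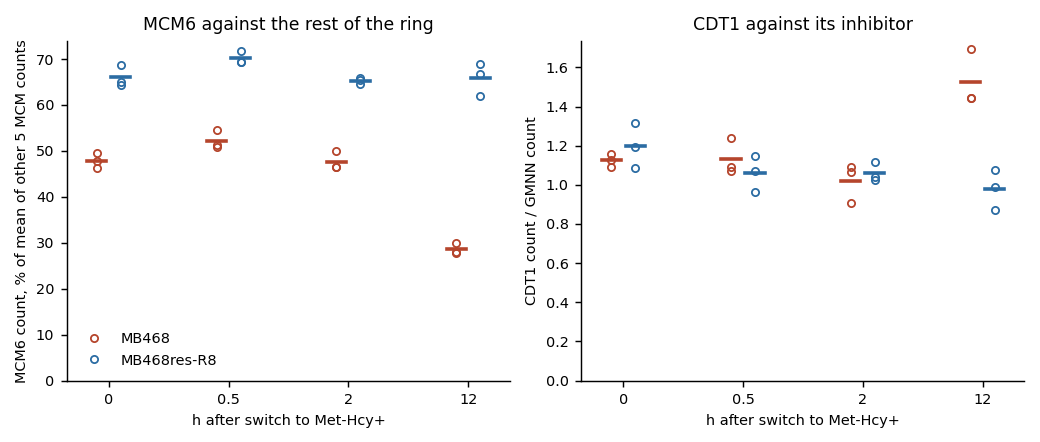
Left, the MCM6 count as % of the mean count of the other 5 MCM genes; right, the CDT1 count divided by the GMNN count, per library (open circles, with the group mean as a bar) against hours after the switch (x axis, not to scale), MB468 in red and MB468res-R8 in blue, y axes from 0. The 3 MB468 libraries at 12 h stand at 27.7 to 29.9% on the left and at 1.44 to 1.69 on the right.

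Promoter sequence was available for 8 of the 10 genes (RefSeq start sites on GRCh38.p14, 250 bases before the start and 50 from it). MCM4 and MCM5 had no entry. The E2F words TTTCCCGC, TTTCGCGC, TTTGCCGC and TTTGGCGC were searched on both strands, and 7 of the 11 promoter entries of these genes held at least 1, where 3.31% of the 35116 promoter entries did. The 7 belong to 7 of the 8 genes, all but ORC1. MCM6 had the most, with 4 matches at 2 places, because TTTGGCGC overlaps TTTCGCGC read on the other strand in the 12 letters TTTGGCGCGAAA. The first words there begin at -152 and -90 relative to its start site. In MCM7 the words began at -187 and -9 relative to the first of its 3 start sites, and in GMNN at -80 relative to the second of 2. In MCM2 they began at position 3 and at position 7 and overlapped each other, and in CDC6 at position 8. The windows below are shown because they hold the words of MCM6, the gene that fell most, and of MCM3 and CDT1, genes that moved little or in the other direction with a word of the same family. They are written 5′ to 3′ on the gene's strand, with the E2F words in capitals. They cover chr2:135876497-135876620 (MCM6, minus strand), chr6:52284884-52284941 (MCM3, minus strand, word at -174, with a further word at -4) and chr16:88803729-88803786 (CDT1, plus strand, word at -35 on the opposite strand).
MCM6: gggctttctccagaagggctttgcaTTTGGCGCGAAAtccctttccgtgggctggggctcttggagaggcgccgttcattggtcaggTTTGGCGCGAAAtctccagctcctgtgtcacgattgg
MCM3: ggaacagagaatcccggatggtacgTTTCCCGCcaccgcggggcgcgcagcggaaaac
CDT1: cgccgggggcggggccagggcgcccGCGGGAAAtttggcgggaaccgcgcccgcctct

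The number of matches stands beside the log2 fold change at 12 h in MB468 as follows. MCM6 had 4 matches, which overlap in pairs, and -1.06. With 2 matches, MCM2 (overlapping each other) had -0.55, MCM7 -0.47 and MCM3 -0.20. Counted by place, MCM6, MCM7 and MCM3 had 2 each (-1.06, -0.47 and -0.20) and MCM2 had 1 (-0.55). MCM4 and MCM5 could not be counted, and a link between words and change was not tested. With 1 match, GMNN had -0.31, CDC6 -0.11 and CDT1 0.13, and ORC1, with 0, had -0.07. CCAAT, the box bound by NF-Y, was found in the windows of MCM3, MCM6, MCM7, ORC1, CDC6 and GMNN, where 34.6% of all entries held it. TTTGAA, the core of the element that marks many G2/M genes, was found in none of the 8, where 15.2% of all entries held it. A match of letters is a description and not a binding site.

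At 0.5 h after the switch, 8 of the 10 genes were already lower in MB468, where 16.4% of all tested genes were called lower. The changes were small and even, with log2 fold changes from -0.14 for MCM2 to -0.25 for CDC6, and they left out MCM6 (-0.07, SE 0.04, adjusted p = 0.22) and ORC1 (0.01, SE 0.06). CDC6 went from 111, 110 and 107 CPM at 0 h to 93.2, 92.9 and 89.3 CPM at 0.5 h. MCM4 went from 320, 310 and 309 CPM to 267, 269 and 261 CPM (log2 fold change -0.24, SE 0.04). Neither pair of groups overlapped. The MCM2 call was lost without 0 h replicate 1 or 2 or 0.5 h replicate 1 (adjusted p = 0.082, 0.12 and 0.11), and the CDT1 call without 0.5 h replicate 1 (adjusted p = 0.11). At the same time, 13 of the 14 mitosis genes were called higher and 0 lower in MB468 (median 0.29), where 17.6% of all tested genes were called higher. All 14 were called higher in MB468res-R8 (median 0.43), where 17.4% were.

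MB468res-R8 had 3 genes called lower at 0.5 h, MCM4, MCM7 and CDT1, where 16.3% of all tested genes were called lower. Their log2 fold changes were -0.19 (SE 0.04), -0.13 (SE 0.04) and -0.24 (SE 0.05), and all 3 calls were lost with spike-in scaling (adjusted p = 0.59, 0.80 and 0.39). The 0.5 h response was not shown to differ between the lines for any of the 10 genes by edgeR, where 2.90% of all tested genes were called in either direction. CDC6 was nearest to a call, with a log2 difference of 0.20 (SE 0.06, unadjusted p = 0.0033, adjusted p = 0.089), the one gene under an unadjusted p of 0.05 and the one called by DESeq2 (adjusted p = 0.047).

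In MB468 at 2 h, edgeR called 0 of the 10 genes, where 16.3% of all tested genes were called in either direction, with 3 under an unadjusted p of 0.05 and 2, MCM2 and MCM3, called by DESeq2. MCM2 (log2 fold change -0.14, SE 0.05, adjusted p = 0.053) and CDT1 (-0.15, SE 0.06, adjusted p = 0.056) were just short of the threshold. MCM2 passed without 0 h replicate 3 (log2 fold change -0.18, adjusted p = 0.024). MCM7 was at 575, 570 and 566 CPM, against 544 to 575 CPM at 0 h. With spike-in scaling all 10 genes were lower at 2 h in MB468, MCM7, CDC6 and GMNN with a turned sign, on a scale where the median of all tested genes was itself at -0.42. Of the 14741 tested genes, 9271 were called lower and 240 higher on that scale.

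In MB468res-R8, edgeR and DESeq2 called 0 of the 10 genes at 2 h, and 1 was under an unadjusted p of 0.05, where 4.37% of all tested genes were called in either direction. For the difference between the lines at 2 h both tools called 0 of the 10, and 0 were under an unadjusted p of 0.05, where 5.07% of all tested genes were called in either direction. The log2 differences at 2 h lay between -0.02 (CDC6) and 0.14 (MCM2).

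Already in Met+ medium, 6 of the 10 genes were called lower in MB468res-R8 than in MB468 and 0 higher, where 27.1% of all tested genes were called lower. Of the ring, these were MCM2, MCM3, MCM4 and MCM7. MCM7 stood apart. It was at 290, 294 and 284 CPM in MB468res-R8 against 574, 575 and 544 CPM in MB468, a log2 difference of -0.96 (SE 0.04, adjusted p = 8.3e-25). MCM7 remained lower in the clone at each time, at 265, 269 and 260 CPM at 0.5 h and 286, 302 and 289 CPM at 2 h. CDC6 (-0.28, SE 0.04), MCM2 (-0.24, SE 0.05), MCM3 (-0.24, SE 0.03), MCM4 (-0.13, SE 0.04) and GMNN (-0.14, SE 0.05, adjusted p = 0.019) were lower by much less. The GMNN call was lost without MB468 replicate 2 or MB468res-R8 replicate 2 (adjusted p = 0.064 and 0.13). MCM5 (-0.02, SE 0.04), MCM6 (0.07, SE 0.04), ORC1 (0.04, SE 0.06) and CDT1 (-0.05, SE 0.05) were not called. With spike-in scaling 8 genes were called lower, and MCM6 (-0.24) and ORC1 (-0.27) had a negative sign without a call. The median of all tested genes was at -0.31 on that scale, with 6495 of 14741 called lower and 1144 higher.

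Genes next to MCM7 were lower in the clone as well. Over all tested genes, 27.1% were called lower in MB468res-R8 in Met+ medium, and the median log2 difference was -0.00061. Of the 21 tested genes within 250 kb of MCM7 that could be matched by symbol, 15 were called lower there and 0 higher. Their log2 differences ran from -1.05 to -0.04, with a median of -0.52. Examples were COPS6, a subunit of the COP9 signalosome (-0.38), TAF6, a subunit of TFIID (-0.51), and LAMTOR4, a part of the Ragulator complex (-0.43). AP4M1, which overlaps MCM7 on the opposite strand over 392 exon bases (7.9% of the MCM7 exon union), was at -0.16 (adjusted p = 0.079). MIR25, a microRNA gene (-0.99, adjusted p = 0.041) and 1 of the 15, lies inside MCM7 on the same strand. Around the other 9 genes the called neighbours went both ways or were few. The next largest sets were 13 around CDC6, with 3 lower and 4 higher, and 11 around CDT1, with 5 lower and 1 higher. The same 27.1% of all tested genes called lower stands beside these counts. This neighbourhood was looked at after the MCM7 value was seen. Neighbours were matched by current symbol only.

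**Figure D4:**
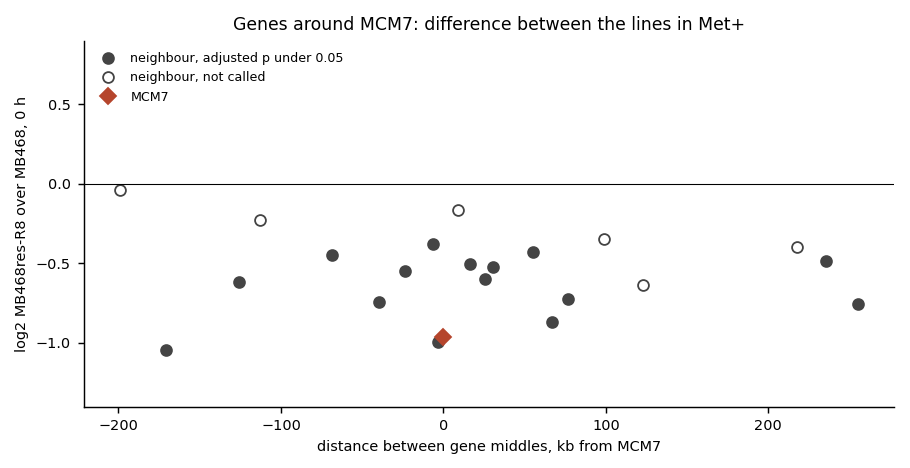
Log2 difference between MB468res-R8 and MB468 in Met+ medium (y axis) for the 21 tested genes around MCM7 against the distance of their middle from the middle of MCM7 in kb (x axis, negative toward lower coordinates). Filled circles are called at an adjusted p under 0.05, open circles are not, and the diamond is MCM7 at -0.96; all 21 lie below 0, from -1.05 to -0.04.

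Between the lines at 12 h, 6 of the 10 genes were higher in MB468res-R8 (33.9% of all tested genes) and 2 lower (39.2% of all tested genes). MCM6 was the largest, with a log2 difference of 1.13 (SE 0.04). ORC1 (0.25, SE 0.06), GMNN (0.20, SE 0.05), MCM4 (0.17, SE 0.04), MCM5 (0.15, SE 0.04) and MCM2 (0.14, SE 0.05) were higher, although MCM2 libraries of the lines overlapped and its call was lost without MB468 replicate 1 (adjusted p = 0.064). MCM7 (-0.58, SE 0.03) and CDT1 (-0.45, SE 0.05) were lower. MCM3 (0.03, SE 0.03) and CDC6 (-0.07, SE 0.04) were not called. With spike-in scaling only MCM6 was called higher and MCM7 and CDT1 lower. On that scale 3549 of the 14741 tested genes were called higher and 5097 lower.

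The rest of the replication programme was counted at 12 h over lists of genes by role. Over all tested genes, 36.1% were called higher and 34.7% lower in MB468, 30.2% higher and 31.1% lower in MB468res-R8, and 26.2% higher and 30.3% lower for the difference between the lines. The 8 other origin recognition and licensing genes had 5 called higher (62.5%, against 36.1% of all tested genes) and 0 lower in MB468 (median log2 fold change 0.37), and 7 higher (87.5%, against 30.2%) and 0 lower in MB468res-R8 (median 0.45), where the medians of all tested genes were 0.01 and -0.02. ORC5, a subunit of the origin recognition complex, had a log2 fold change of 0.72 (SE 0.08) in MB468 and 0.85 (SE 0.08) in MB468res-R8. ORC2, another subunit, had 0.50 (SE 0.06) and 0.51 (SE 0.07). MCMBP, which binds free MCM subunits, was at 0.05 (SE 0.05, not called) in MB468 and rose by 0.41 (SE 0.05) in the clone, with a tested difference of 0.36 (SE 0.06). ORC4 was at -0.03 (SE 0.07, not called) and rose by 0.29 (SE 0.07).

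Among the 15 origin firing genes, 7 were higher and 4 lower in MB468 (median 0.03), and 11 higher and 1 lower in MB468res-R8 (median 0.30). The shares higher and lower were 46.7% and 26.7% in MB468, near those of all tested genes (36.1% and 34.7%), and 73.3% and 6.67% in MB468res-R8 (30.2% and 31.1%). By the test of the difference, 8 had a higher response in the clone (53.3%, against 26.2% of all tested genes) and 3 a lower one (20%, against 30.3%). DBF4, the activator of the CDC7 kinase that phosphorylates the loaded ring, rose by 1.27 (SE 0.06) in MB468 and by 0.89 (SE 0.06) in the clone. CDC45 and the GINS complex join the ring to make the working helicase. CDC45 fell by 0.61 on the log2 scale (SE 0.05) in MB468 and was at 0.01 (SE 0.06, not called) in MB468res-R8, with a tested difference of 0.62 (SE 0.08). Of the GINS subunits, GINS4 had -0.45 (SE 0.06) and GINS3 0.89 (SE 0.05) in MB468, opposite signs within 1 complex.

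The 20 replication fork genes had 4 higher and 8 lower in MB468 (median -0.03), and 8 higher and 4 lower in MB468res-R8 (median 0.08). The share lower in MB468 (40.0%) and the share higher in MB468res-R8 (40.0%) were near those of all tested genes (34.7% and 30.2%). The tested difference between the lines was higher in MB468res-R8 for 11 of the 20 (55%, against 26.2% of all tested genes). It was lower for 2 (10%, against 30.3%). TIMELESS, a fork protection factor, went from 128 to 58.4 CPM (log2 fold change -1.13, SE 0.04) in MB468 and from 112 to 83.0 CPM (-0.43, SE 0.04) in the clone. Its partner TIPIN had 0.47 (SE 0.10) in MB468 and 0.75 (SE 0.10) in the clone. PCNA, the sliding clamp, went from 180 to 103 CPM in MB468 (log2 fold change -0.81, SE 0.05) and from 145 to 148 CPM in the clone (0.03, SE 0.05, not called). FEN1, the flap endonuclease, rose by 1.02 (SE 0.04) in MB468 and by 0.22 (SE 0.04) in the clone.

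Of the 10 genes of S phase entry and deoxynucleotide synthesis, 0 were higher and 7 lower in MB468 (median -0.38), against 4 higher and 1 lower in MB468res-R8 (median 0.06). The share lower in MB468 was 70%, against 34.7% of all tested genes. The tested difference between the lines was higher in MB468res-R8 for 9 of the 10, against 26.2% of all tested genes. TK1, thymidine kinase, fell in both lines (log2 fold changes -0.92, SE 0.04, and -0.34, SE 0.04). CCNE2, cyclin E2, went from 24.3 to 14.0 CPM in MB468 (-0.80, SE 0.09) and from 22.4 to 25.9 CPM in the clone (0.20, SE 0.09). CCNE1 and CDC25A had values of 0.10 (SE 0.05) and 0.11 (SE 0.06) in MB468 that were not called, and rose in the clone by 0.47 (SE 0.06) and 0.46 (SE 0.06).

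The 13 E2F factors and pocket proteins had 3 higher and 6 lower in MB468 (median -0.21), and 7 higher and 4 lower in MB468res-R8 (median 0.21). The shares lower, 46.2% and 30.8%, were near those of all tested genes (34.7% and 31.1%), and the shares higher were 23.1% and 53.8% (36.1% and 30.2%). E2F2, an activator, fell by 0.56 (SE 0.07) and by 0.51 (SE 0.07) on the log2 scale, with a tested difference of 0.05 (SE 0.10) that was not called. TFDP1, the partner that E2F factors bind DNA with, fell by 0.29 (SE 0.03) in MB468 and rose by 0.27 (SE 0.04) in the clone. E2F4, which acts mainly in repression, rose by 0.61 (SE 0.05) and by 0.43 (SE 0.06), and E2F7, an atypical repressor, by 0.44 (SE 0.08) and by 0.26 (SE 0.09).

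The 11 genes of licensing factor turnover had 6 higher and 2 lower in MB468 (median 0.19), and 8 higher and 0 lower in the clone (median 0.26). The shares higher were 54.5% and 72.7%, against 36.1% and 30.2% of all tested genes. CCNF, the F-box protein cyclin F, through which CDC6 is degraded, rose by 1.36 (SE 0.06) in MB468 and by 1.44 (SE 0.06) in the clone. DDB1 and RBX1 belong to the ubiquitin ligase that destroys CDT1 on replicating DNA. DDB1 fell by 0.40 (SE 0.03) in MB468 and rose by 0.26 (SE 0.03) in the clone, and RBX1 fell by 0.45 (SE 0.07) in MB468 and was at -0.01 (SE 0.07, not called) in the clone. KMT5A, a substrate of that ligase, rose by 0.61 (SE 0.05) and by 0.23 (SE 0.05).

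Of the 14 mitosis genes, 6 were higher and 4 lower in MB468 (median 0.06), 13 were higher and 0 lower in MB468res-R8 (median 0.80), and 12 had a higher response in the clone by the test of the difference. In MB468 the shares, 42.9% and 28.6%, were near those of all tested genes (36.1% and 34.7%), while 92.9% were higher in MB468res-R8 (30.2%) and 85.7% for the difference (26.2%). CCNB2, cyclin B2, went from 96.5 to 57.2 CPM in MB468 (log2 fold change -0.75, SE 0.04) and from 97.0 to 124 CPM in the clone (0.35, SE 0.04). PTTG1, securin, had -0.41 (SE 0.04) and 0.33 (SE 0.04). The centromere protein genes CENPE and CENPF rose in both lines, CENPF by 0.81 (SE 0.04) and 0.83 (SE 0.04). Of the MCM relatives outside the ring, MCM9 rose in MB468 (0.41, SE 0.07) and was at 0.12 (SE 0.07, not called) in the clone, and MCM8 was at -0.02 (SE 0.06, not called) and fell by 0.17 (SE 0.06). In bulk RNA, a change in the share of cells in a phase of the cycle and a change per cell cannot be told apart.

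**Figure D5:**
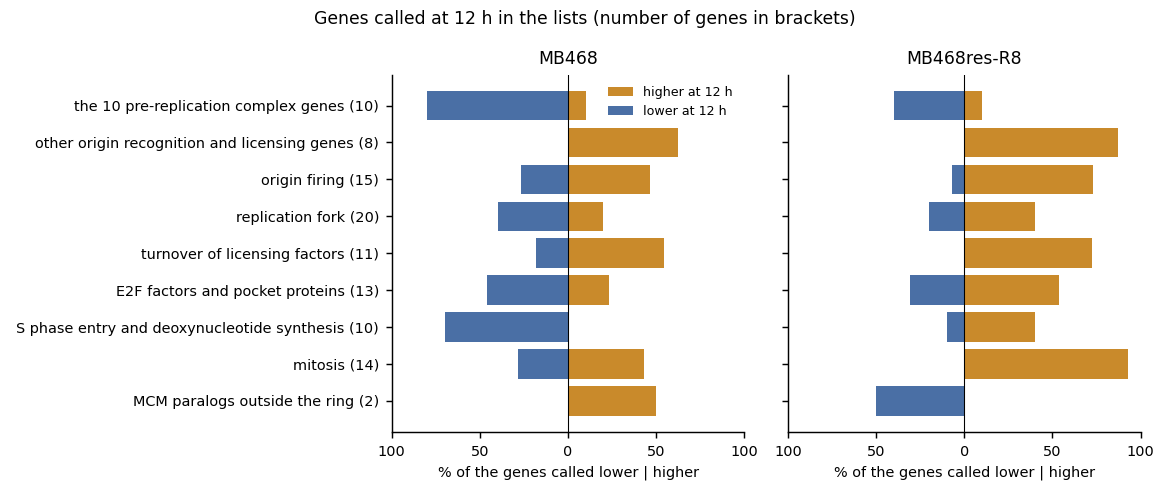
Share of the genes of each list called lower (blue, to the left) or higher (orange, to the right) at 12 h against 0 h, in % of the tested genes of the list (number in brackets), for MB468 (left panel) and MB468res-R8 (right panel). The 10 pre-replication complex genes are mostly on the lower side in MB468 (8 of 10), the mitosis list is mostly on the higher side in MB468res-R8 (13 of 14), and the other licensing genes are on the higher side in both.

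Over the 8 group means, the 10 genes did not share a single pattern. Pearson's r with the mean profile of the 10 was 0.88 for MCM2 and MCM3, 0.85 for GMNN, 0.72 for MCM7, 0.67 for CDC6, 0.62 for MCM5, 0.44 for MCM6, 0.43 for MCM4, 0.08 for CDT1 and -0.02 for ORC1. These are descriptions over 8 points that share libraries, and each gene is part of the mean it is set against. Between pairs, r ran from -0.70 (MCM6 and CDT1) to 0.88 (MCM3 and CDC6), and MCM5 and MCM6 reached 0.79.

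Among 9865 other genes whose mean log2 CPM was 3 or more, the 8 whose group means were most like the mean profile were GCLM, PSPC1, ANXA8, RAI14, LRP8, HMHA1, MICAL1 and PMF1, with r from 0.97 to 0.94. GCLM, the modifier subunit of the enzyme that begins glutathione synthesis, had log2 fold changes of -0.64 in MB468 and -0.16 in MB468res-R8 at 12 h. None of the 8 is a member of the lists above. For MCM6 alone, the most alike of the genes outside the 10 were ARPC5, SLC25A5 and CPNE2 (r 0.99 each), and POLA2, the second subunit of DNA polymerase alpha, was seventh (0.99), with log2 fold changes of -0.68 in MB468 and 0.08 in MB468res-R8 at 12 h. For MCM7 alone the list was led by NT5C2 (0.99), which was lower in MB468res-R8 at 0 h by a log2 value of -0.65, and for CDT1 by TOLLIP (0.97). The likeness of single genes was added after their values were seen.

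The level of all genes depends on how libraries are scaled, and the comparisons above are relative to the bulk of tested genes. With spike-in totals as the scale, the median of all tested genes moved to -0.23 at 12 h in MB468, 0.00 at 12 h in MB468res-R8, and 0.20 for the difference between the lines at 12 h. On that scale the calls over all tested genes at 12 h in MB468 were 2538 higher and 5922 lower, against 5317 higher and 5113 lower with TMM. The 10 genes had 0 higher and 9 lower there, ORC1 (-0.30, adjusted p = 0.045) joining and CDT1 leaving. The MCM6 log2 fold change was -1.30 (adjusted p = 2.3e-21).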

How the data were processed

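The authors deposited raw gene counts of 24 libraries: single-end reads aligned with HISAT2 2.1.0 to GRCh38 with spike-in sequences and counted with featureCounts (Subread 1.5.3), per the labels and the study's methods. Their strand setting and annotation release are not given in the sources used here. The deposited DESeq2 tables (normalised counts, fold changes and p-values of the authors' comparisons) were not used. Whether replicates are separate cultures is not stated, so p-values measure the spread between these libraries. No pair of replicates agreed within counting noise.

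Counts were fitted with edgeR 4.0.16 (quasi-likelihood test, R 4.3.3) over 8 group means, after a filter on low counts (minimum 10, total 15) and TMM scaling, and 11 comparisons were adjusted by Benjamini-Hochberg over 14741 genes. A gene was called at an adjusted p under 0.05. CPM are TMM-scaled. DESeq2 was an alternative. The steps were run on simulated counts in which a small set of genes was changed, evenly up and down. Far more genes were called at 12 h in MB468, so the simulation does not test the scaling there. Replicate numbers were not used to pair libraries. Of the 8 pairs of groups compared, none had a correlation of deviations above 0.1 for every number. This rule can miss a pairing of only some numbers. MB468res-R8 at 2 h against 0 h had -0.03, 0.47 and 0.39, and at 12 h against 0 h -0.07, -0.39 and 0.02.

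The 10 genes and the lists were chosen with earlier results of these data known. All 10 were named, and from each list the 2 highest and 2 lowest log2 fold changes at 12 h in MB468. COPS6, TAF6, LAMTOR4, AP4M1, MIR25, POLA2 and the genes alike to single members were named after their values were seen. Positions are from the GENCODE annotation of GRCh38.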

Additional observations from a re-analysis of the deposited data

Results flagged for a closer look

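The response at 12 h in Met-Hcy+ differed between the lines for each of the 10 genes by edgeR's test of the difference (log2, positive where MB468res-R8 was higher, n = 3 libraries in each of the 4 groups, adjusted p under 0.05). The values were 1.06 for MCM6, 0.39 for MCM2, 0.38 for MCM7, 0.33 for GMNN, 0.30 for MCM4, 0.27 for MCM3, 0.21 for CDC6, 0.20 for ORC1, 0.17 for MCM5 and -0.40 for CDT1. Of all tested genes, 26.2% were called higher and 30.3% lower by the same test. ORC1 (adjusted p = 0.045) lost its call without any 1 of 6 libraries and after thinning to the lowest total (0.10, adjusted p = 0.43). CDT1 lost its call with spike-in scaling (-0.14, adjusted p = 0.58). Single libraries were not tested as outliers within groups of 3.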

How the results depend on the processing

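Of 990 log2 fold changes of single genes under settings other than leaving out a library, 892 kept their direction and side of the threshold, 27 lost a call, 29 gained one and 42 turned sign. Of the 42, 4 were called in either fit, all under spike-in scaling: MCM7 (-0.40), CDC6 (-0.39) and GMNN (-0.43) at 2 h in MB468, and CDT1 (-0.11) at 12 h in MB468. The other 38 were called in neither fit, and their values as reported were at most 0.077 from 0. Of 840 with 1 library left out, 765 kept direction and side, 27 lost a call, 8 gained one and 40, of 20 results called in neither fit, turned sign. In MB468 at 2 h, 2 genes were called with DESeq2 size factors, without a filter on low counts, by DESeq2 and with only the groups compared, 1 after thinning to the lowest total, 10 with spike-in scaling, and 0 to 1 with a library left out. Spike-in scaling gave 0 calls in MB468res-R8 at 0.5 h and at 12 h and 3 between the lines at 12 h. With a library left out, 3 to 7 genes were called in MB468res-R8 at 12 h. DESeq2 and the fit of only the groups compared called 1 gene for the difference at 0.5 h.

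The median of the 10 genes at 12 h in MB468 was -0.28 with DESeq2 size factors, with at least 10 counts in every library and by DESeq2, -0.27 with only the groups compared, -0.22 after thinning, -0.49 with spike-in scaling, and -0.28 to -0.25 with a library left out. In MB468res-R8 it was -0.018 to 0.054 with a library left out. For the difference between the lines it was 0.32 with DESeq2 size factors and by DESeq2, 0.54 with spike-in scaling and 0.28 to 0.35 with a library left out. The causes were not tested. When the replicate number was added as a block, 5 genes were again called in MB468res-R8 at 12 h, MCM7 leaving (-0.08) and CDC6 joining (0.10), no other call changed, and MCM6 there turned sign at -0.00034.

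The values that turned sign and were called in neither fit follow. With DESeq2 size factors these were ORC1 (-0.0030) in MB468 at 0.5 h, GMNN (-0.0078) in MB468 at 2 h and MCM7 (0.0035) for the difference at 2 h. With spike-in scaling these were ORC1 (-0.20) in MB468 at 0.5 h, MCM6 (0.015) in MB468res-R8 at 0.5 h, MCM5 (-0.024), MCM7 (-0.033), ORC1 (-0.025) and CDC6 (-0.027) in MB468res-R8 at 2 h, MCM6 (-0.24) and ORC1 (-0.27) between the lines at 0 h, MCM3 (-0.021) between the lines at 12 h, ORC1 (0.20) and CDT1 (0.18) for the difference at 0.5 h and MCM7 (0.37) and CDC6 (0.36) for the difference at 2 h. With at least 10 counts in every library these were ORC1 (-0.0027) in MB468 at 0.5 h and MCM6 (-0.017) in MB468res-R8 at 12 h. By DESeq2 these were ORC1 (-0.0035) in MB468 at 0.5 h, GMNN (-0.0074) in MB468 at 2 h and MCM7 (0.0052) for the difference at 2 h. With only the groups compared these were ORC1 (-0.0015) in MB468 at 0.5 h, GMNN (-0.0038) in MB468 at 2 h and MCM7 (0.0096) for the difference at 2 h. With the spike-in factor as a covariate these were MCM6 (0.0013), ORC1 (0.043) and CDC6 (-0.0071) in MB468 at 2 h and MCM6 (-0.011), MCM7 (0.0056), ORC1 (-0.016) and CDC6 (0.018) for the difference at 2 h. Without a filter on low counts these were GMNN (-0.0015) in MB468 at 2 h and MCM7 (0.0015) for the difference at 2 h. After thinning these were MCM5 (-0.0039) and ORC1 (-0.025) in MB468res-R8 at 2 h, MCM5 (0.0061) between the lines at 0 h and CDC6 (0.019) for the difference at 2 h. With a library left out, the ranges were ORC1 (-0.036 to 0.065) in MB468 at 0.5 h, ORC1 (-0.074 to 0.041), GMNN (-0.063 to 0.040) and MCM7 (-0.014 to 0.028) in MB468 at 2 h and ORC1 (-0.099 to 0.0014) in MB468res-R8 at 0.5 h. Further ranges were MCM2 (-0.037 to 0.0084), ORC1 (-0.027 to 0.075), MCM6 (-0.033 to 0.0027), MCM7 (-0.015 to 0.028), CDC6 (-0.013 to 0.030), MCM3 (-0.035 to 0.0017) and MCM5 (-0.0071 to 0.052) in MB468res-R8 at 2 h, MCM6 (-0.020 to 0.044) and GMNN (-0.016 to 0.091) in MB468res-R8 at 12 h and ORC1 (-0.027 to 0.10) between the lines at 0 h. Further ranges were CDC6 (-0.095 to 0.0019) between the lines at 12 h, ORC1 (-0.12 to 0.0035) for the difference at 0.5 h and ORC1 (-0.024 to 0.10), MCM7 (-0.030 to 0.026) and CDC6 (-0.065 to 0.010) for the difference at 2 h.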
